A study of Populus tremula x Populus alba with 6 samples.

Results

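Peaks of the transcription factor PtrbHLH011 on unplaced scaffolds are described, the pieces of the poplar genome sequence that carry no chromosome name. They were taken as all peaks whose sequence name does not begin with Chr, in the peak lists of both subgenomes of the hybrid Populus tremula x Populus alba. The rule kept 1714 of 36015 peaks. On P. alba 892 of 18975 peaks (4.70%, exact 95% binomial interval 4.40 to 5.01%) lay on 179 scaffolds, and on P. tremula 822 of 17040 (4.82%, 4.51 to 5.16%) lay on 182. The other 34301 peaks lay on the 19 chromosomes.

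The peaks come from chromatin immunoprecipitation sequencing (ChIP-seq) of leaf mesophyll protoplasts, cells freed of their walls, in which PtrbHLH011-10xMyc was made from transiently introduced DNA. There were 3 ChIP libraries, recovered with an anti-Myc antibody, and 3 input libraries made without antibody from cells with the same genotype label. All libraries thus come from cells with the tagged, introduced factor, and the labels give neither the promoter that drove it nor cells without it. Both lists belong to this single set of libraries and are not replicates of each other. The peak tables hold no value per library, so no spread between replicates can be given, and with no expression values the cell type could not be checked against markers.

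Basic helix-loop-helix factors bind short DNA elements known as E-boxes. The Arabidopsis protein bHLH11 is known as a repressor of genes for iron uptake. Unplaced scaffolds of plant genome assemblies are usually rich in repeats and poor in genes, and reads from repeated sequence are hard to assign to a single copy. No genome sequence was used here, so no sequence of a peak is shown and the repeat content of the scaffolds was not measured.

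The numbering of the peaks sets a limit on what the scaffold lists hold. The caller numbered peaks along the sequences in text order of their names, with the chromosomes before the scaffolds. Chromosome peaks took the numbers 1 to 18083 on P. alba and 1 to 16218 on P. tremula without a break. Of the 1079 numbers that followed on P. alba, 187 (17.3%) belong to no peak analysed here, and of the 977 on P. tremula 155 (15.9%). These numbers lay at 74 and 73 places, each before the first peak of a scaffold, and 0 lay between peaks of the same scaffold. The longest run held 24 numbers (P. alba) and 13 (P. tremula). All shares of scaffold peaks given here count only the analysed peaks.

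Most scaffolds with an analysed peak had few peaks, and scaffolds without one are not counted here. The median scaffold had 2 peaks in each list, 59 P. alba and 73 P. tremula scaffolds had 1 peak, and 55 and 49 had 5 or more. The 5 fullest scaffolds held 21.6% of the scaffold peaks on P. alba and 22.3% on P. tremula. Scaffold_20 was the fullest, with 59 peaks on P. alba and 53 on P. tremula, followed by scaffold_21 with 47 and 45. On P. alba scaffold_38, scaffold_25 and scaffold_28 came next with 31, 30 and 26 peaks, and on P. tremula scaffold_45, scaffold_23 and scaffold_38 with 30, 28 and 27.

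The fullest scaffolds differed in depth, counted as the reads covering the summit (the pileup). On scaffold_20 the median over summits was 11 reads in each list. On scaffold_21 the median was 85 for P. alba and 51 for P. tremula, and 39 of its 47 and 31 of its 45 summits held 20 reads or more, a depth that 10.8% and 11.6% of the whole lists reach. On scaffold_25 it was reached by 2 of 30 and 3 of 23 summits (6.67% and 13.0%), close to those whole-list shares. Scaffold_45 stood between them, where 13 of 22 summits on P. alba, and 17 of 30 in the P. tremula list, held 20 reads or more.

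**Figure D1:**
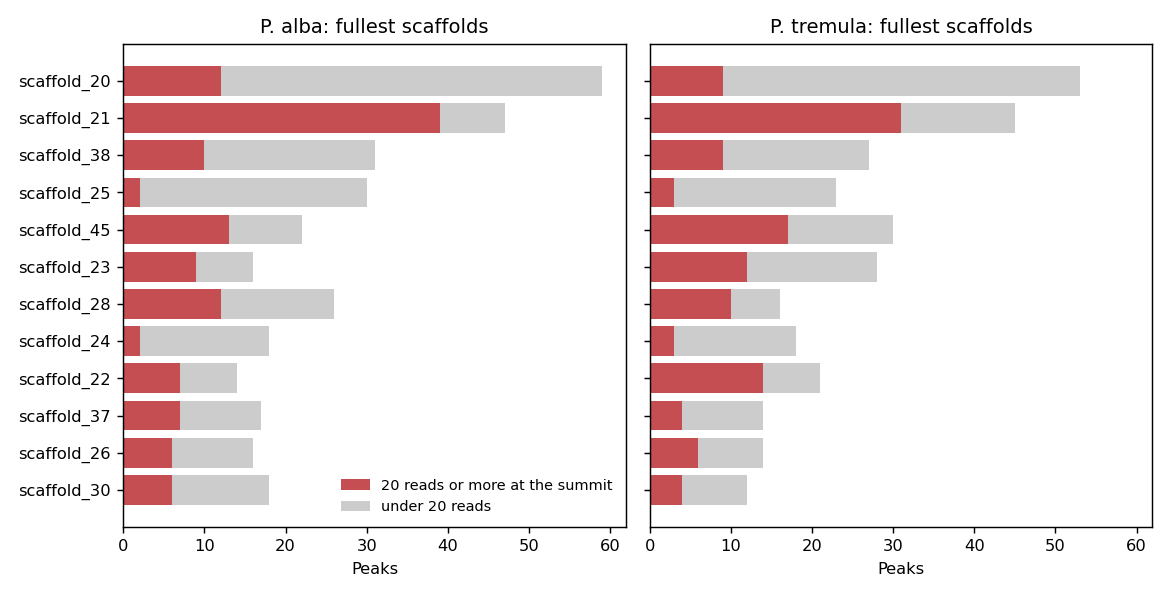
Peaks per scaffold (horizontal axis, counts) for the 12 scaffolds with most peaks over both lists, P. alba left and P. tremula right. Red bars count summits of 20 reads or more and grey bars shallower ones; most of scaffold_21 is red, while scaffold_20, with most peaks, is mainly grey.

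Scaffold peaks lay farther from annotated genes than chromosome peaks did. In the authors' annotation the promoter class reaches 3 kb to either side of a gene start. It held 293 of 892 P. alba scaffold peaks (32.8%, 29.8 to 36.0%), against 62.0% of 18083 chromosome peaks (odds ratio 0.300, 95% interval 0.260 to 0.346, Fisher's exact test, adjusted p = 1.30e-65). On P. tremula it held 271 of 822 (33.0%, 29.8 to 36.3%), against 62.3% (odds ratio 0.298, 0.257 to 0.346, Fisher's exact test, adjusted p = 5.12e-61). Distal intergenic peaks made up 60.7% on P. alba scaffolds (57.4 to 63.9%), against 25.3% on chromosomes (odds ratio 4.54, 3.96 to 5.22, Fisher's exact test, adjusted p = 8.88e-103). On P. tremula they made up 61.2% (57.8 to 64.5%), against 25.2% (odds ratio 4.68, 4.05 to 5.41, Fisher's exact test, adjusted p = 1.61e-98). Among summits of 10 reads or more, a restriction chosen after seeing the data, the distal odds ratios were 2.36 on P. alba (1.93 to 2.88, Fisher's exact test, adjusted p = 4.12e-17) and 2.65 on P. tremula (2.15 to 3.27, Fisher's exact test, adjusted p = 2.15e-20). Each p is two-sided and adjusted by the Benjamini-Hochberg method, over the 14 tests of the whole lists. For a restricted set of peaks it is adjusted over the tests of that restriction only. The tests count peaks as independent, although peaks of a scaffold share its sequence, and they measure counting error within a list rather than the spread between libraries.

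No chromosome reached the promoter or distal share of the scaffolds. Promoter shares of the 19 chromosomes ran from 49.5% on chromosome 19 to 74.5% on chromosome 9 on P. alba, and chromosomes 19 and 9 were also the lowest and highest (74.2%) on P. tremula. All stood above the scaffold value. Distal shares ran to 39.9% for P. alba and 37.1% for P. tremula, both on chromosome 19, and all stood under the scaffold value. With each sequence of 5 or more peaks counted once, the mean promoter share was 32.6% over 55 P. alba scaffolds, against 61.8% over the chromosomes, and 30.9% over 49 P. tremula scaffolds, against 62.1%.

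Each of the 3 promoter bands was smaller on scaffolds. Within 1 kb of a start lay 17.0% of the scaffold peaks, against 30.7% of the chromosome peaks, in the P. alba list, and 15.9% against 31.1% in the P. tremula list. At 1 to 2 kb the shares were 9.19% and 18.0% for P. alba, and 9.37% and 17.9% for P. tremula. Exons outside the promoter class held 2.24% of scaffold peaks, against 5.76% of chromosome peaks, for P. alba, and 2.31% against 5.68% for P. tremula. The region downstream of genes was close in size in both groups, at 2.35% (1.46 to 3.58%) of scaffold and 3.00% (2.76 to 3.26%) of chromosome peaks on P. alba.

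**Figure D2:**
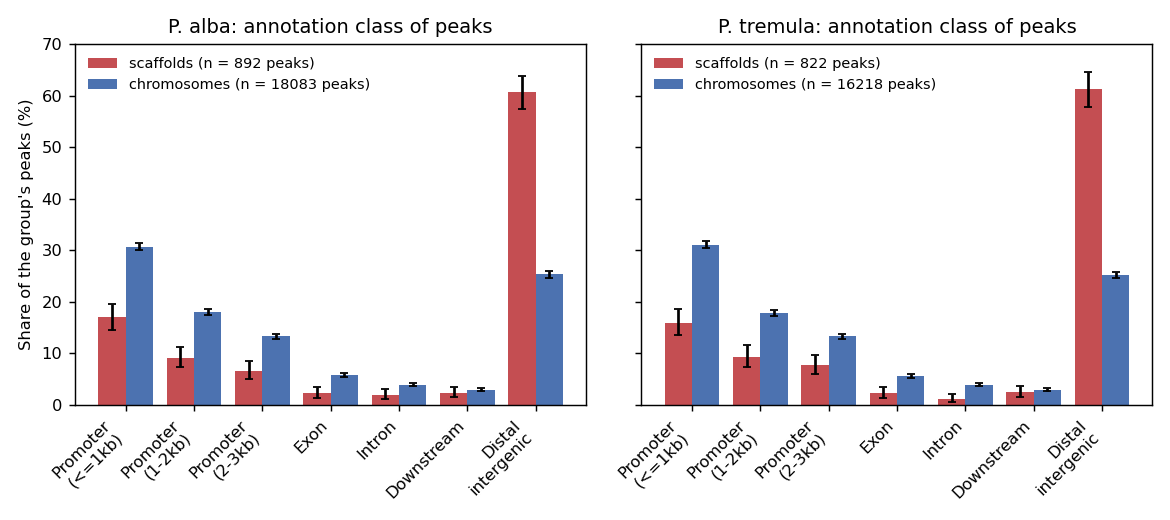
Share of peaks in each annotation class (vertical axis, percent) for scaffold peaks (red) and chromosome peaks (blue), P. alba left and P. tremula right; error bars are exact 95% binomial intervals over peaks. Distal intergenic peaks make up 60.7% and 61.2% of the scaffold peaks, and each of the 3 promoter bands is lower than on chromosomes.

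Distances from summits to gene starts gave the same order. The median distance was 5381 bp for P. alba scaffolds, against 2158 bp for its chromosomes, and 5979.5 bp against 2144 bp for P. tremula. Of the P. alba scaffold peaks 5.83% had a summit no more than 250 bp from a start, against 12.1% of chromosome peaks (odds ratio 0.450, 0.339 to 0.598, Fisher's exact test, adjusted p = 1.45e-09). On P. tremula 5.96% had one, against 12.2% (odds ratio 0.456, 0.340 to 0.611, Fisher's exact test, adjusted p = 8.59e-09). The P. alba difference was no longer past the threshold among summits of 10 reads or more, a restriction chosen after seeing the data (odds ratio 0.675, Fisher's exact test, adjusted p = 0.102). The number of annotated genes per length of scaffold was not measured here, so nearness to genes and gene density cannot be told apart.

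Inside the promoter class, too, the summits were placed otherwise. On P. alba scaffolds 123 of the 293 promoter summits were upstream of the start, 115 inside the gene and 55 past its end, which is 42.0%, 39.2% and 18.8%. On the chromosomes these shares were 38.1%, 51.4% and 10.4%. The genes were shorter as well: the median length of a gene with a scaffold peak was 1784.5 bp, against 2650 bp for genes with a chromosome peak, in the P. alba list, and 1828 bp against 2645 bp in the P. tremula list. The part of gene length in the placement was not tested.

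Scaffold summits were deeper than chromosome summits. The median summit held 10 reads on P. alba scaffolds (25th to 75th percentile 7 to 22.2), against 7 (6 to 8) on chromosomes. For P. tremula it held 11 (7 to 25), against 7 (6 to 8). At least 20 reads covered 259 P. alba scaffold summits (29.0%, 26.1 to 32.1%), where the whole list has 10.8%, and 251 P. tremula scaffold summits (30.5%, 27.4 to 33.8%), where the whole list has 11.6%. Chromosome peaks reached this depth at 9.94% on P. alba (odds ratio 3.71, 3.18 to 4.32, Fisher's exact test, adjusted p = 2.89e-53) and at 10.7% on P. tremula (with an odds ratio of 3.67, 3.14 to 4.30, Fisher's exact test, adjusted p = 1.68e-50). The highest value on any chromosome was 23.8% for P. alba and 26.1% for P. tremula, both on chromosome 13. Deep summits were spread over 82 P. alba and 74 P. tremula scaffolds. Without scaffold_21 the shares were 26.0% and 28.3%.

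The background under the peaks was raised along with the depth. The caller's local background was recovered from each fold as (pileup + 1) / fold − 1. Its median was 2.08 reads on P. alba scaffolds, against 0.989 on chromosomes, and 2.30 against 0.985 for P. tremula. The chromosome medians are the lowest background the caller used, within 0.01 reads. At that floor lay 24.9% of the scaffold peaks in each list, against 60.6% (P. alba) and 58.3% (P. tremula) of the chromosome peaks. Whether the deeper summits reflect more bound chromatin or more reads placed on these sequences was not tested.

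Fold enrichment, the summit over this background, had the same median on scaffolds and chromosomes, 3.52 for P. alba and 3.53 for P. tremula. Folds of 5 or more were reached by 125 P. alba scaffold peaks (14%, whole list 8.21%) and 110 P. tremula scaffold peaks (13.4%, whole list 8.08%). Against the chromosomes' 7.92% and 7.81% the odds ratios were 1.89 (1.56 to 2.30, Fisher's exact test, adjusted p = 2.77e-09) and 1.82 (1.48 to 2.25, Fisher's exact test, adjusted p = 1.21e-07). Among peaks of q at or under 0.01 the P. tremula odds ratio was 1.15 and not past the threshold (Fisher's exact test, adjusted p = 0.220). The q value was at or under 0.05 at 719 P. alba scaffold peaks (80.6%, whole list 72.6%; odds ratio against chromosomes 1.60, 1.35 to 1.89, Fisher's exact test, adjusted p = 2.36e-08). On P. tremula it was so at 691 (84.1%, whole list 72.9%; against chromosomes the odds ratio was 2.02, 1.67 to 2.44, Fisher's exact test, adjusted p = 1.64e-14). At a q of 0.01 or less stood 508 P. alba scaffold peaks (57.0%, whole list 39.8%) and 492 P. tremula ones (59.9%, whole list 40.1%).

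Among deeper summits the order of the folds turned round. Among summits of 10 reads or more, a restriction chosen after seeing the data, 23.4% of 495 P. alba scaffold peaks had a fold of 5 or more, against 32.3% of 3578 chromosome peaks (odds ratio 0.642, 0.516 to 0.800, Fisher's exact test, adjusted p = 7.91e-05). On P. tremula the shares were 20.8% of 476 and 30.8% of 3328 (odds ratio 0.590, 0.467 to 0.745, Fisher's exact test, adjusted p = 9.50e-06). At 20 to 49 reads the median fold was 3.47 over a background of 6.93 reads on P. alba scaffolds, against 4.69 over 5.31 reads on chromosomes, and for P. tremula 3.47 over 7.36 against 4.66 over 5.29. Among the deepest summits, of 200 reads or more, the median fold was higher on scaffolds, at 3.25 on P. alba, against 2.85, and 3.50 on P. tremula, against 2.73, a difference that was not tested. Below 10 reads the share of folds of 5 or more was 2.27% on P. alba scaffolds and 1.92% on its chromosomes (odds ratio 1.19, 0.607 to 2.32, Fisher's exact test, adjusted p = 0.576). A summit of 8 reads over a background at the floor gave a fold of only 4.52 on P. alba. Under 10 reads only summits of 9 reads, at or just above the floor, could thus reach 5. This comparison counts such summits and cannot show a difference in enrichment.

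The q values were also compared at shallow depth. Among summits under 10 reads, 65.0% of P. alba scaffold peaks passed a q of 0.05, against 66.9% of chromosome peaks (odds ratio 0.917, 0.744 to 1.13, Fisher's exact test, adjusted p = 0.456), and on P. tremula 69.4% passed, against 66.9% (odds ratio 1.12, 0.888 to 1.41, Fisher's exact test, adjusted p = 0.425). The difference in q over the whole lists thus did not pass the test among these shallow peaks. The caller's p, and with it q, is computed from summit reads and background, so a limit on reads also narrows the range of q. What sets the difference in q was not tested.

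The promoter share was lower on scaffolds in each depth class. At 5 to 9 reads promoters held 41.1% of P. alba scaffold peaks (36.2 to 46.1%), against 66.1% of chromosome peaks. At 20 to 49 reads they held 21.3% (15.1 to 28.8%), against 40.2%. At 50 to 199 reads they held 15.9% (8.24 to 26.7%), against 46.4%, so that scaffold and chromosome peaks stood farthest apart in this class. From 200 reads on they held 57.5% of 40 scaffold peaks (40.9 to 73.0%), against 79.8% of 292 chromosome peaks. The P. tremula list gave 43.4%, 21.4%, 15.8% and 60.0% on scaffolds in these classes, against 66.6%, 41.9%, 44.7% and 80.7% on chromosomes.

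**Figure D3:**
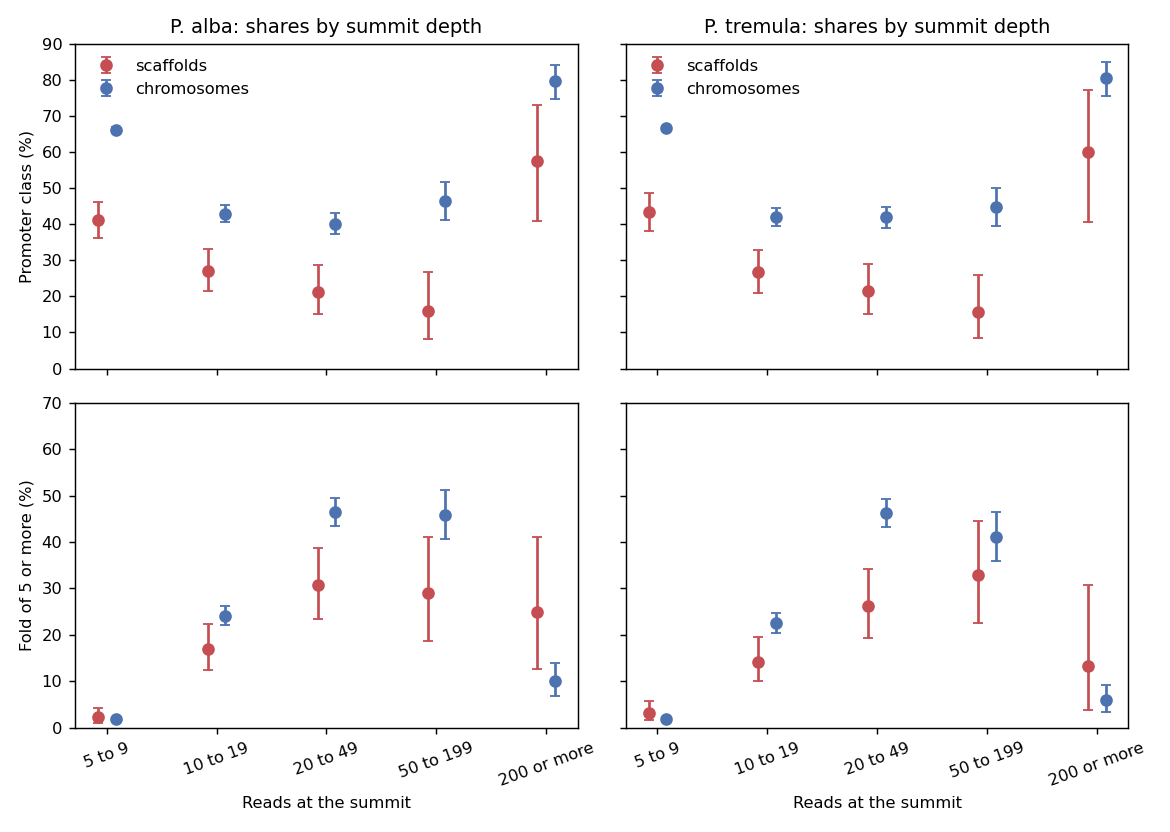
Share of peaks in the promoter class (upper row, percent) and with a fold of 5 or more (lower row, percent) by reads at the summit (horizontal axis), for scaffold peaks (red) and chromosome peaks (blue), P. alba left and P. tremula right; bars are exact 95% binomial intervals over peaks. Promoter shares are lower on scaffolds in each depth class, and from 10 to 49 reads folds of 5 or more are less frequent on scaffolds.

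A fold of at least 10 was reached by 14 scaffold peaks on P. alba and by 15 on P. tremula, which is 1.57% and 1.82% of them, where 0.78% and 0.628% of the whole lists reach that fold. They stood on 13 scaffolds in each list, 6 in each list were in the promoter class, and the others, 8 and 9, were distal. Scaffolds thus held 9.46% of all P. alba peaks of that fold (5.27 to 15.4%) and 14% of the P. tremula ones (8.06 to 22.1%). Their median summit held 50.5 reads for P. alba and 53 for P. tremula, and 2 and 1 of them had a background at the floor.

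Folds on chromosomes ran up to 678 for P. alba and 655 for P. tremula. The highest fold on a scaffold was on scaffold_289, the only peak of that scaffold in each list. On P. alba, where it spanned positions 13595 to 13681, its summit lay 2142 bp past the end of the gene Potri.T135500, and 48 reads over a background at the floor gave a fold of 24.6. In the P. tremula list the peak (13622 to 13708) had 19 reads and, also at the floor, a fold of 10.1. This peak of under 100 bp was thus deeper on P. alba, by counts that have no replicate check. The tables give a gene only as an identifier, with no name or description, so nothing is said of its function.

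The highest fold on P. tremula, and the second on P. alba, was on scaffold_41, 1194 bp (P. tremula) and 1181 bp (P. alba) past the end of Potri.T043500, an annotated gene of 210 bp. On P. alba (90603 to 90823) 43 reads over a background of 2.08 reads gave a fold of 14.3. On P. tremula (90654 to 90872) 43 reads over 1.84 reads gave a fold of 15.5. The summit counts were equal, and the folds differed through the background alone.

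Several strong scaffold peaks had equal summit counts in both lists, and whether the same reads were counted in both cannot be told here. On scaffold_28 a distal peak (224741 to 225098 on P. alba) had 51 reads in each list, with folds of 12.3 (P. alba) and 11.7 (P. tremula). On scaffold_146 a distal peak (23371 to 23814 on P. alba, there 5316 bp upstream of its gene) had 55 reads in each list and folds of 11.9 and 11.4. On scaffold_299 a distal peak of 699 bp (11590 to 12288 on P. alba) had 50 reads in each list and folds of 11.4 and 11.2. Promoter-class peaks near short genes on scaffold_75 and scaffold_52 followed the same pattern. On scaffold_75 a peak with its summit inside a gene of 382 bp (118689 to 119013 on P. alba) had 61 reads and folds of 11.0 and 11.1, and on scaffold_52 a peak with its summit 321 bp past the end of a gene of 408 bp (171292 to 171993 on P. alba) had 53 reads and folds of 11.0 and 10.5.

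Other strong peaks differed in depth between the lists or had no partner. On scaffold_36 a peak 520 bp past the end of its gene on P. alba (276540 to 276869) had 49 reads at a fold of 11.8. Its partner on P. tremula (276891 to 277215) had 36 reads at a fold of 14.2. On scaffold_611 neighbouring peaks past the end of the same gene had folds of 11.6 (19584 to 19761) and 10.6 (19874 to 20086) on P. alba, and their partners had 7.86 and 11.8 on P. tremula. On scaffold_966 a distal peak was deep as well as strong, with 372 reads at a fold of 10.9 on P. alba (7384 to 7591), and 465 reads at a fold of 7.78 on P. tremula. Of the 10 strongest P. tremula peaks, 3 had no partner on P. alba. They lay on scaffold_22 (944243 to 944497, 88 reads, fold 11.8), scaffold_45 (36411 to 36643, 83 reads, fold 11.7) and at a gene start on scaffold_570 (12911 to 13232, 62 reads, fold 10.8). Scaffold_570 had no P. alba peak among those analysed.

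At least 200 reads covered 40 P. alba scaffold summits (4.48%, whole list 1.75%), on 15 scaffolds, and 30 P. tremula scaffold summits (3.65%, whole list 1.88%), on 14 scaffolds. Scaffold_21 alone had 11 and 9 of them. Folds of 5 or more were found at 10 of these 40 P. alba summits (25%, 12.7 to 41.2%), against 9.93% (6.75 to 14%) of chromosome summits of that depth. For P. tremula they were found at 4 of 30 (13.3%, 3.76 to 30.7%), against 5.86% (3.45 to 9.22%), and neither difference was tested. At least 500 reads covered 22 and 16 scaffold summits, where 1.12% and 1.21% of the whole lists reach that depth.

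The deepest P. alba scaffold peak, on scaffold_21 from 436396 to 436977, had its summit 132 bp inside Potri.T005700, with 964 reads at a fold of 3.20 over a background of 300.8 reads. Its P. tremula partner (436442 to 436769) had 894 reads at a fold of 3.35. The deepest P. tremula scaffold peak was on scaffold_149 (61088 to 61329), inside a gene, with 915 reads at a fold of 3.87. There P. alba had a longer peak (61069 to 61627) of 407 reads at a fold of 5.77. On scaffold_56 one peak inside a gene was alike in both lists (80993 to 81729 on P. alba), with 846 reads for P. alba and 853 for P. tremula. A second peak there, at another gene, had 308 reads at a fold of 6.85 on P. alba (83485 to 83889), and 803 reads at a fold of 2.76 on P. tremula (83426 to 83957). A distal peak on scaffold_22 (940395 to 940734 on P. alba) had 847 reads for P. alba and 757 for P. tremula. Partners thus had nearly equal depth at some places and unequal depth at others.

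Scaffold_21 held the largest group of deep peaks, most of them far from any annotated gene. Peaks there were spread over 769.6 kb of the P. alba sequence and 751.0 kb of the P. tremula sequence, and were annotated to 5 and 4 genes. The identifier Potri.T006100, a gene of 262 bp on P. alba, was given to 25 P. alba and 23 P. tremula peaks, with the farthest summit 300731 bp from its start on P. alba. Potri.T005700 was given to 18 and 19 peaks. Of the 47 P. alba peaks 40 were distal, and of the 45 P. tremula peaks 38.

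Deep peaks of scaffold_21 came close together at 2 places, named after their values were seen. From 435418 to 439093 on P. alba, within 3.68 kb, lay 6 promoter-class peaks at 4 genes, with summits of 183 to 964 reads and folds of 2.39 to 3.98. On P. tremula 6 peaks from 435436 to 439211 had 217 to 894 reads and folds of 2.40 to 4.95. A second group lay 95.4 kb before it on P. alba, far from any annotated gene: 3 P. alba peaks from 337363 to 340044 held 675 to 829 reads, and 4 P. tremula peaks from 337144 to 340098 held 82 to 789. Its deepest P. alba summit was 97628 bp from the nearest gene start. Backgrounds at these places reached 342.6 reads for P. alba and 287.5 for P. tremula.

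**Figure D4:**
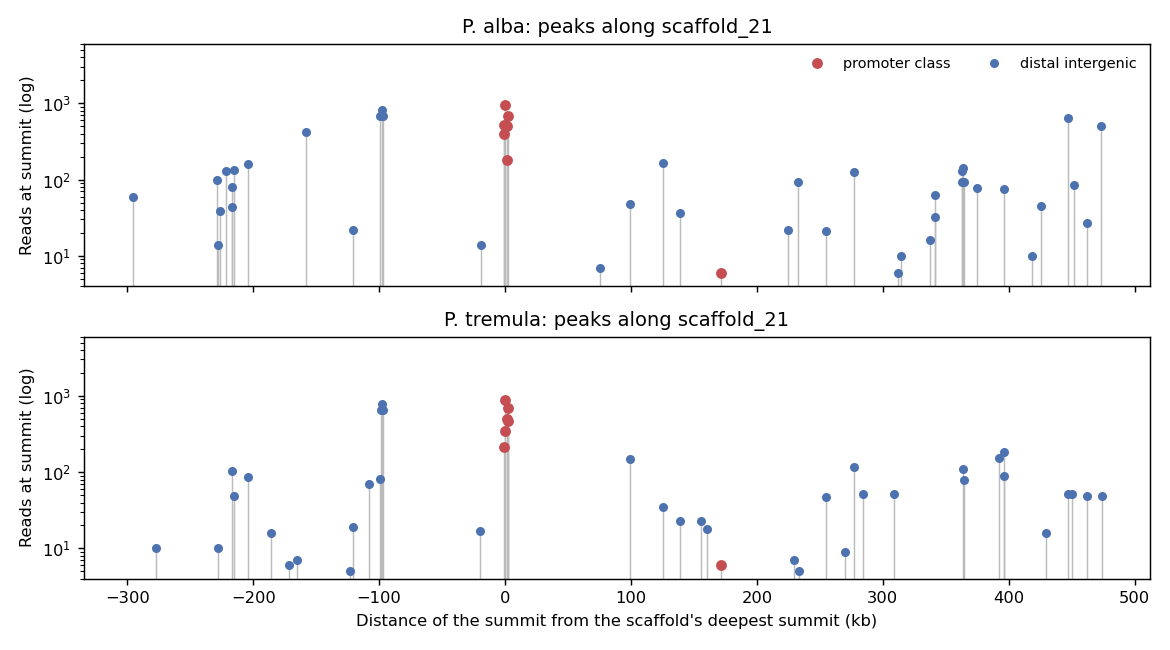
Reads at the summit (vertical axis, log scale) of each peak on scaffold_21 against the distance of its summit from the deepest summit of the scaffold (horizontal axis, kb), P. alba above and P. tremula below; red points are promoter-class peaks and blue points distal ones. Both lists share a group of deep promoter-class peaks at distance 0 and a group of deep distal peaks to its left, and 17 peaks of each list are paired.

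A pair of other scaffolds, also singled out after their values were seen, had every P. alba summit at 20 reads or more. Some scaffolds of fewer peaks did as well, such as scaffold_966 with 3 of 3 P. alba summits. Scaffold_560 was dense in peaks of even depth, with 11 P. alba peaks within 14.7 kb, of 20 to 47 reads, and 10 P. tremula peaks of 22 to 48 reads, all 10 of them paired. Folds there ran from 1.82 to 6.14 on P. alba (median 2.44) and from 2.00 to 6.36 on P. tremula (median 2.45). Counted as intervals between successive peaks, the density was 68.1 per 100 kb between the outermost P. alba peaks of scaffold_560. In the same count the median was 5.42 over the 25 P. alba scaffolds of 10 or more peaks and 4.58 over the 19 chromosomes. Those scaffolds were picked by their number of peaks, so these medians do not show that scaffolds in general are denser. Scaffold_81 had 5 promoter-class P. alba peaks at 3 genes within 3.13 kb (70606 to 73735), of 308 to 883 reads. On P. tremula the same stretch had 1 peak, of 174 reads at a fold of 1.69 (71510 to 71727).

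Scaffold peaks also stood close to each other more often. A neighbour within 1 kb on the same sequence was found for 237 P. alba scaffold peaks (26.6%), against 17.3% of chromosome peaks, and for 187 P. tremula scaffold peaks (22.7%), against 15.4%. Among peaks with any neighbour, the median gap to the nearest was 4220 bp on P. alba scaffolds, against 5444 bp on chromosomes, and 4319 bp against 6300.5 bp for P. tremula. The 75th percentile of the gap was larger on P. alba scaffolds than on chromosomes, at 15104 bp against 13019 bp. For P. tremula it was smaller, at 13865 bp against 14614.2 bp. These spacings are descriptions and were not tested.

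By the pairing rule used here, far fewer scaffold peaks than chromosome peaks had a partner on the other subgenome. Peaks were paired when they named the same gene and sequence and the distances from summit to gene start differed by at most 100 bp. By this rule 318 scaffold pairs were found on 125 scaffolds. They are 35.7% of the P. alba scaffold peaks (32.5 to 38.9%), against 67.8% of chromosome peaks (odds ratio 0.263, 0.229 to 0.303, Fisher's exact test, adjusted p = 5.69e-81). Of the P. tremula scaffold peaks they are 38.7% (35.3 to 42.1%), against 75.6% (odds ratio 0.204, 0.176 to 0.236, Fisher's exact test, adjusted p = 1.04e-103). Both tests count the same pairs, so they are not separate results. The lowest share on any chromosome was 50.8% for P. alba and 60.2% for P. tremula, both on chromosome 19. Median distances from summit to start were 5381 and 5979.5 bp on scaffolds, against 2158 and 2144 bp, and the fixed limit takes no account of this. On scaffold_21, for example, peaks at 575139 to 575390 (P. alba) and 575144 to 575275 (P. tremula) were not paired. A missing partner thus does not show that the other list lacks a peak there.

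The lower share of partners was found near genes as well as far from them. In the promoter class 48.1% of P. alba scaffold peaks were paired (42.3 to 54.0%), against 74.5% of chromosome peaks (73.7 to 75.3%). Among distal peaks 29.4% were paired (25.6 to 33.4%), against 48.2% (46.7 to 49.6%). On P. tremula the promoter shares were 52.0% and 82.9%, and the distal shares 31.6% and 53.8%. How far differences in length between the subgenome sequences set these shares was not tested. With a limit of 250 bp the pairs numbered 373, and with 50 bp 261. Under 10 reads 26.7% of P. alba scaffold peaks had a partner, against 71.4% of chromosome peaks (odds ratio 0.146, 0.116 to 0.183, Fisher's exact test, adjusted p = 1.05e-72). From 10 reads on, a limit chosen after seeing the data, 42.8% had one, against 53.1% (odds ratio 0.662, 0.548 to 0.801, Fisher's exact test, adjusted p = 3.97e-05). The P. tremula odds ratios were 0.105 under 10 reads (0.0831 to 0.133, Fisher's exact test, adjusted p = 6.08e-87) and 0.615 from 10 reads on (0.507 to 0.747, Fisher's exact test, adjusted p = 2.34e-06).

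Paired scaffold peaks were also less alike than paired chromosome peaks. Summit counts were equal in 100 of the 318 scaffold pairs (31.4%, 26.4 to 36.9%), against 77.8% of 12258 chromosome pairs (77.1 to 78.5%). Among pairs with both summits under 10 reads they were equal in 57 of 91 (62.6%, 51.9 to 72.6%), against 86.1% (85.4 to 86.7%), and among the other pairs in 18.9% of 227 (14.1 to 24.7%), against 35.7% (33.6 to 37.8%). Folds differed by over 1.5 times in 40 scaffold pairs (12.6%, 9.14 to 16.7%), against 1.71% of chromosome pairs. The P. alba fold was the higher one in 21 of the 40 and the P. tremula fold in 19. The log2 ratio of folds, P. alba over P. tremula, had an SD of 0.42 over scaffold pairs and 0.17 over chromosome pairs, with medians of -0.00 in each. None of these shares was tested, and how much of the likeness rests on reads counted in both lists cannot be told from the tables.

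The largest differences in fold within pairs had several forms. On scaffold_37 (247753 to 247864 on P. alba) both summits held 66 reads, with folds of 1.97 over a background of 33 reads (P. alba) and 9.93 over 5.75 reads (P. tremula). On scaffold_45 a distal peak (110102 to 110315 on P. alba) had 152 reads at a fold of 8.68 on P. alba, and 53 reads at a fold of 2.77 on P. tremula. A neighbour on the same scaffold (109409 to 109505 on P. alba) had 45 reads at a fold of 4.86 over a background of 8.47 reads on P. alba. On P. tremula it was deeper, with 69 reads, but had a fold of 1.72 over 39.6 reads. On scaffold_28 a peak downstream of a gene (323820 to 324184 on P. alba) had 11 reads at a fold of 2.84 on P. alba, and 37 reads at a fold of 8.12 on P. tremula. On scaffold_23 a distal peak (190298 to 190461 on P. alba) had 58 reads at a fold of 10.4 on P. alba, and 15 reads at a fold of 4.01 on P. tremula. Depth, background or both thus separated the partners.

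**Figure D5:**
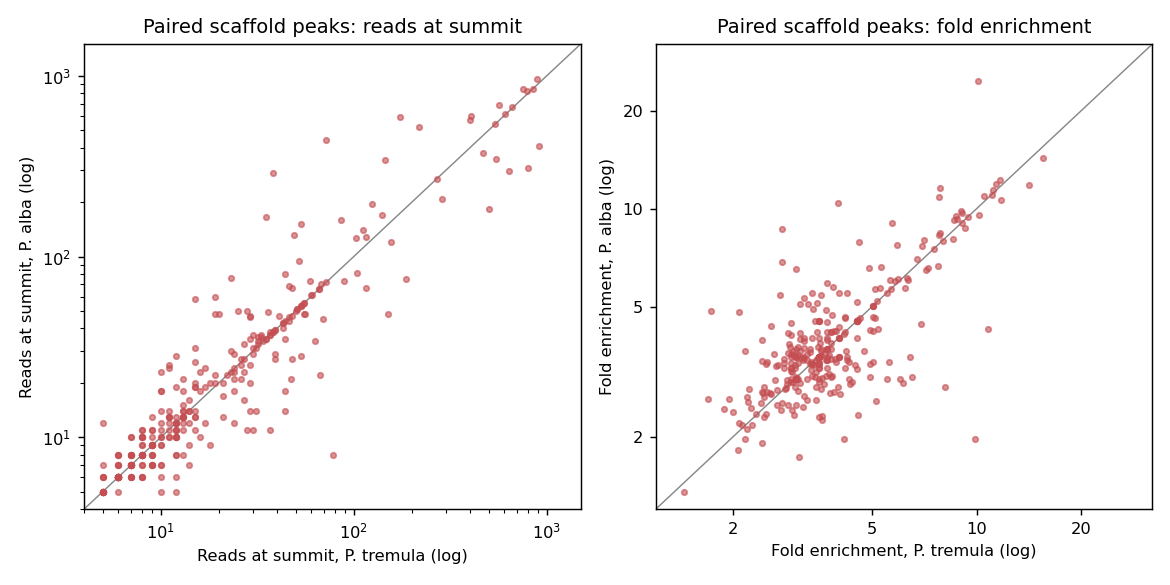
Reads at the summit (left) and fold enrichment (right) of the 318 paired scaffold peaks, P. tremula on the horizontal and P. alba on the vertical axis, both on log scales; each point is a pair and the grey line marks equal values. Points lie on both sides of the line, and the 40 pairs whose folds differ by over 1.5 times are 21 above and 19 below it.

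Scaffold genes with a peak were common to both lists in a smaller share than chromosome genes. Of the scaffolds with a peak, 156 were named in both lists, which is 87.2% of the P. alba and 85.7% of the P. tremula ones. Only 31 of the 574 unpaired P. alba peaks and 34 of the 504 unpaired P. tremula peaks lay on a scaffold without a peak in the other list. Scaffold peaks were annotated to 480 P. alba and 454 P. tremula genes, and 334 identifiers were common, 69.6% and 73.6% of the lists. Of the 12923 and 12033 genes with a chromosome peak 10643 were common, 82.4% and 88.4%. A promoter-class peak was found at 233 and 227 genes, 148 of them in both lists (63.5% and 65.2%, against 81.4% and 88.7% of such genes on chromosomes). These overlaps were not tested. Each of the scaffold genes' identifiers begins with Potri.T, a prefix that no gene with a chromosome peak carried. The prefix thus goes with the choice of sequences and says nothing further of the genes.

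Genes on scaffolds collected more peaks each. There were 1.86 peaks per gene on P. alba scaffolds, against 1.40 on chromosomes, and 1.81 against 1.35 for P. tremula. At least 5 peaks were given to 26 of 480 P. alba genes and to 27 of 454 P. tremula genes. On chromosomes 137 of 12923 and 83 of 12033 genes had that many. Since each peak is given to its nearest gene at any distance, these counts depend on how far apart the annotated genes are and do not show binding to those genes.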

How the data were processed

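Peak tables for ChIP-seq of 3 anti-Myc ChIP and 3 input libraries were analysed, 1 table per subgenome. The submitters' processing notes list ChIPseeker 1.18.0, BWA 0.7.17.2 and MACS2 2.2.7.1. Duplicate marking is named in the deposited peak names. Not given in the sources used here are genome build, annotation release, calling options, library depth and pooling. The columns of a peak are, per the file headers, the pileup signal (reads at its summit), the fold enrichment as a ratio, −log10 of p and q, positions and a nearest gene. Peak names carry 1 tag that matches no library label.

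Each peak stood in 2 rows and was counted once (37950 and 34080 rows). A Poisson p from the recovered background matched the deposited −log10 p within 0.01 for 100% and 99.9% of scaffold peaks. Shares have exact (Clopper-Pearson) 95% intervals, covering counting error only, and were compared by two-sided Fisher's exact tests with sample odds ratios whose intervals use a normal approximation (Python 3.11.15, SciPy 1.17.1, pandas 2.3.3). The pairing was tried on a copy of the P. alba list with summits shifted within the pairing limit, and the share test on simulated independent counts. These trials held neither differences in length between the subgenomes nor dependence between peaks of a scaffold. Named peaks are, per list, the 10 of highest fold, the 5 of highest pileup, the 5 fullest scaffolds and the 5 pairs that differed most in fold, with others marked as chosen later. At most 4 gene identifiers are printed, because the tables pair none with a name, and for the same reason the 6 planned gene classes were not counted. The members, lists and tests were chosen with earlier results of these data known. Alternatives were a stricter q, single scaffolds left out, depth limits, other promoter reaches and pairing limits, and each sequence counted once.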

Additional observations from a re-analysis of the deposited data

How the results depend on the processing

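Of 102 alternative values, 87 kept their direction and side of the threshold or stayed within the set limits, 6 lost significance, 5 moved and 4 changed direction. The low promoter share (odds ratios between 0.293 and 0.464, the highest with a promoter reach of 1 kb on P. alba), the high distal share (between 2.36 and 4.80), the high share of deep summits and the low share of partners passed the threshold in each alternative with a test. A limit of 0.01 on q left 508 P. alba scaffold peaks, 492 P. tremula ones and 179 pairs. Scaffold_21 was then the fullest scaffold in both lists, with 8.46% of the P. alba and 7.32% of the P. tremula peaks, and the P. tremula odds ratio for folds of 5 or more was 1.15. Under 10 reads the odds ratios for those folds were 1.19 for P. alba and 1.72 for P. tremula, and those for q at or under 0.05 were 0.917 (reversed) and 1.12. At that depth only summits of 9 reads, at or just above the background floor, can reach a fold of 5. These fold ratios therefore cannot show a difference in enrichment. From 10 reads on, a limit chosen after seeing the data, the odds ratios were 0.642 and 0.590 for folds of 5 or more (both reversed and past the threshold), 0.888 (reversed) and 1.30 for q, and 0.675 for P. alba summits within 250 bp of a start. With each sequence counted once the P. alba odds ratio for a partner was 0.212, with no test. The causes were not tested. Leaving out scaffold_21 or keeping scaffolds named in both lists, also chosen after seeing the data, changed no call. No paired analysis was possible because values per library were not part of the tables analysed. Replicates could not be left out either. Library depth is unknown.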
